A study of Mus musculus with 12 samples.

Results

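Mouse genes whose symbol is Zfp followed by a number encode proteins with zinc fingers, small folds held by a zinc ion that in most of these proteins read DNA and in some bind RNA or other proteins. The members described here are the 268 genes of that name among the 11022 genes of the expression table. Zfp36 was left out because its product is a CCCH-type protein that binds AU-rich mRNA. The rule used the symbol alone and no measured value. Expression was measured in P14 cytotoxic T lymphocytes (CTL), CD8+ effector cells grown from female LCMV-P14 TCR transgenic mice, in which the transgenic T cell antigen receptor (TCR) recognises the gp33-41 peptide of a viral glycoprotein. Lymph node or spleen cells of 3 mice were first activated with the peptide, IL-2 and IL-12, and expanded in IL-2. The 12 samples form 4 groups of 3, all kept in 20 ng/mL IL-2, and how the cells of each mouse were divided over the groups is not given in the sources used here. The groups were unstimulated CTL, CTL given 100 ng/mL peptide for 4 h (TCR), and CTL given peptide with either 10 µM IC87114, an inhibitor of the PI3K p110δ catalytic subunit (PI3Kdi), or 2 µM PD184252, an inhibitor of the ERK-activating kinase MEK (MEKi). The vehicle was DMSO. All cells therefore carried 1 transgenic receptor, had met antigen before and were growing in IL-2, and each inhibitor was used at a single dose and time.

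Many Zfp proteins are arrays of C2H2 fingers, in which a pair of cysteines and a pair of histidines hold the zinc. The largest subgroup also carries a KRAB domain, which recruits the co-repressor Trim28 (KAP1) and through it the histone methyltransferase Setdb1, HP1 proteins (Cbx1, Cbx3 and Cbx5) and DNA methylation, and these proteins are best known for silencing retroelements and guarding imprinted loci. KRAB zinc finger genes lie in tandem clusters, and their mRNAs are usually scarce. Other Zfp genes only share the name: they encode ribosome assembly factors, RNA-binding proteins, ubiquitin ligases or BTB-type transcription factors.

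Markers of CTL were abundant in every group. Cd8a averaged 221 to 417 FPKM (fragments scaled by exon length and by library size), Gzmb 8740 to 13000 FPKM, and Ifng rose from 72.4 FPKM in unstimulated CTL to 29600 with peptide. Of the markers of other cells, Cd4 (0.45 to 2.94 FPKM), Cd68 (6.89 to 8.19 FPKM) and Klrb1c (1.59 to 5.39 FPKM) were in the table, and the B cell and erythroid markers were not; their part in the results was not tested. The effective depth estimated from the steps between low values was 7880000 to 13260000 fragments per sample, which makes 0.1 FPKM a matter of a few fragments for a short mRNA.

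All 268 members were matched to a GENCODE gene, and 267 of them to a coding sequence. The translated sequences held a median of 10 C2H2 motifs (at most 36), and 120 of the 267 held a string typical of the KRAB A box. These 120 are called KRAB members below. A KRAB domain with other letters was not counted, so the members without the string can include KRAB genes. Proteins with that string had a median of 12 C2H2 motifs against 8 in the other 147. Chromosome 7 carried 71 of the members, chromosome 17 carried 33 and chromosome 13 carried 27, and 76 of these 131 held the KRAB string. Zfp259, Zfp330, Zfp365, Zfp703 and Zfp839 held no C2H2 motif. In 12 cases the annotation now uses another symbol, among them Zbtb14 for Zfp161, Zbtb18 for Zfp238, Zbtb21 for Zfp295 and Zpr1 for Zfp259. Transcripts of 17 members shared more than 10% of their 100-base stretches with another gene, and 198 shared none.

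Zfp mRNAs were scarce. The mean FPKM over the 12 samples had a median of 3.2 over the members (quartiles 1.31 and 6.68, range 0.035 to 80.3) against 10.9 over all genes. Of the members, 47 averaged under 1 FPKM, 185 between 1 and 10, and 36 reached 10 or more. The 6 most abundant were Zfp207 (BuGZ, a spindle assembly factor), Zfp330 (a nucleolar protein), Zfp106 (an RNA-binding protein), Zfp259 (a partner of the elongation factor eEF1A), Zfp598 (the ubiquitin ligase that senses collided ribosomes) and Zfp146. None of these 6 held the KRAB string. The summed FPKM of the members was 1336 ± 14.1 in unstimulated CTL, 1502 ± 28 with peptide, 1524 ± 19.7 with PI3Kdi and 1478 ± 15 with MEKi (mean ± SD, n = 3). Because the sum over all genes rose from 480159 to 639396 FPKM with peptide, the members held 0.278 ± 0.0107% of it in unstimulated CTL and 0.235 ± 0.0123% with peptide, and 0.271 ± 0.0123% and 0.277 ± 0.0057% with PI3Kdi and MEKi. Bulk values cannot tell fewer cells of a type from less RNA per cell.

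The first comparison asked how renewed antigen receptor triggering changed Zfp expression. Few members moved far: 11 rose and 13 fell more than 2-fold at an adjusted p under 0.05 in limma on log2(FPKM + 0.1), which is 8.96% of the members, whereas 20.0% of all genes (8.87% higher and 11.1% lower) and 24.3% of the 5003 other genes of similar mean FPKM (0.558 to 12.2) passed the same test. Inside that range of FPKM, 9 of 214 members rose and 12 fell (9.81%). Without the fold threshold 89 members were higher and 40 lower (48.1%), against 68.6% of all genes and 66.9% of the genes of similar FPKM. By direction, 33.2% of the members and 33.6% of all genes were higher at that threshold, but 14.9% of the members and 34.9% of all genes were lower. In 97 members all TCR samples lay above all unstimulated samples and in 48 below, when 34.7% and 36.5% of all genes did so.

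The median log2 fold change was 0.12 over the members, −0.01 over all genes and −0.16 over the genes of similar FPKM. The spread was narrower, from −0.59 to 0.68 between the 10th and the 90th percentile of the members and from −1.06 to 0.92 over all genes. These directions rest on the deposited scaling. When every sample was rescaled to a common sum of FPKM (the TPM scale), the median of all genes moved to −0.41 and that of the members to −0.26, and 4 members rose and 24 fell. Relative to the median of all genes, the members stood 0.13 higher on the deposited scale and 0.15 higher on the TPM scale.

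**Figure D1:**
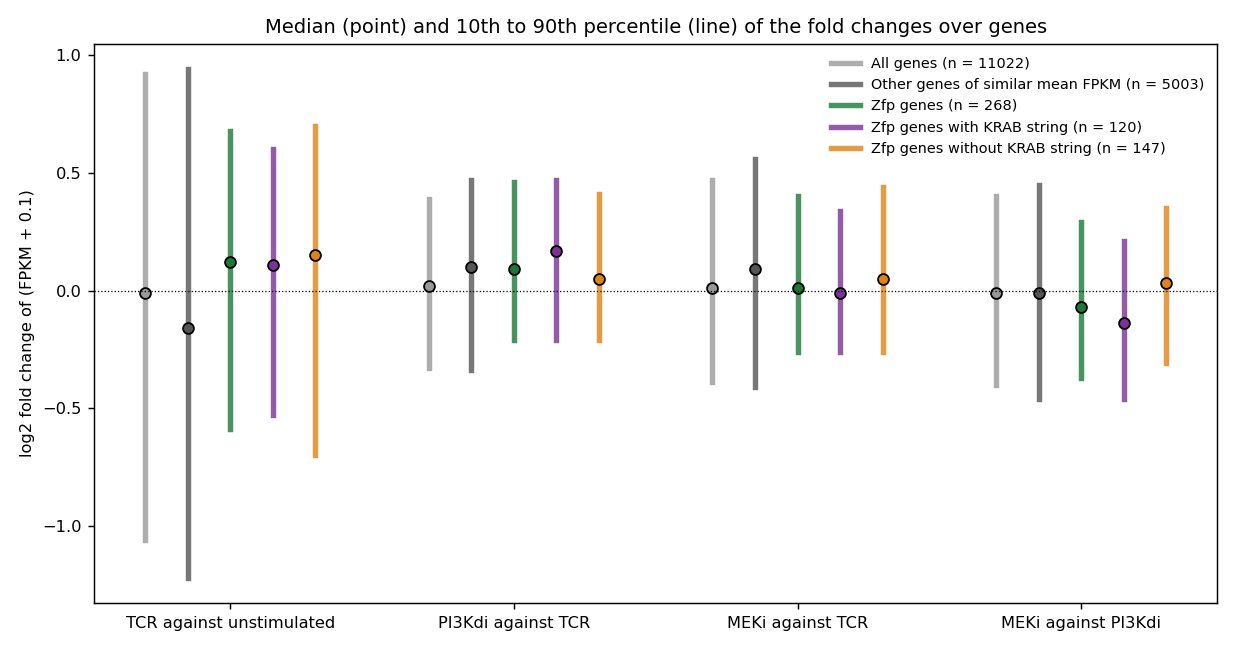
Log2 fold change of (FPKM + 0.1) in the 4 comparisons, with a point at the median over genes and a line from the 10th to the 90th percentile, for all genes, other genes of similar mean FPKM, all Zfp members and the members with and without a KRAB string. The Zfp line after peptide runs from −0.59 to 0.68 and is shorter than that of all genes, and the KRAB members have the highest median with PI3Kdi (0.17).

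On the scale of log2(FPKM + 0.1) Zfp827 and Zfp703 rose most with peptide, and the rise of both was smaller when PI3K p110δ was inhibited. The added 0.1 lowers the fold change of scarcer members such as Zfp57. Zfp827, whose human counterpart is known for recruiting the NuRD complex to telomeres, was at 0.27, 0.26 and 0.33 FPKM in unstimulated CTL, 2.17, 2.15 and 1.98 FPKM with peptide, 1.04, 1.1 and 1.27 FPKM with PI3Kdi and 1.87, 1.76 and 1.4 FPKM with MEKi. The TCR samples lay far above the unstimulated ones, the PI3Kdi samples fell between both groups without overlap, and all MEKi samples were below the TCR samples by a smaller margin. The log2 fold change was 2.51 ± 0.16 (SE) with peptide (limma adjusted p = 2.18e-09), −0.83 with PI3Kdi (adjusted p = 0.00144) and −0.32 with MEKi (adjusted p = 0.13), and MEKi stood 0.52 above PI3Kdi (adjusted p = 0.0228). Zfp703, a transcriptional repressor of the NET family, was at 2.75, 2.73 and 2.99 FPKM in unstimulated CTL, 13.3, 13.56 and 13.88 FPKM with peptide, 7.23, 6.45 and 7.77 FPKM with PI3Kdi and 10.94, 10.78 and 12.25 FPKM with MEKi. No group overlapped another. It rose by 2.23 ± 0.09 on the log2 scale (adjusted p = 1.29e-11), was 0.92 lower with PI3Kdi (log2 fold change −0.92, adjusted p = 6.24e-06) and 0.26 lower with MEKi (−0.26, adjusted p = 0.0317).

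Among the KRAB members that rose, Zfp57 was lower with either inhibitor and Zfp948 with MEKi. Zfp57, which keeps DNA methylation at imprinted loci, was at 0.03, 0.06 and 0.07 FPKM in unstimulated CTL (an estimated 1.27 to 3.51 fragments), 0.6, 0.53 and 0.69 FPKM with peptide, 0.09, 0.22 and 0.39 FPKM with PI3Kdi and 0.16, 0.23 and 0.1 FPKM with MEKi. Every TCR sample was above every sample of the other groups, and the inhibitor groups overlapped each other. The log2 fold changes were 2.21 ± 0.32 with peptide (adjusted p = 1.86e-05), −1.18 ± 0.32 with PI3Kdi (adjusted p = 0.013) and −1.45 ± 0.32 with MEKi (adjusted p = 0.00251), and the inhibitors differed by −0.27 (adjusted p = 0.565). At this low level the sizes depend on the pseudocount, and without PI3Kdi replicate 1 the PI3Kdi change was −0.83 with an adjusted p of 0.0534.

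Zfp948, a KRAB protein with 15 C2H2 motifs, was at 1.47, 1.77 and 2.03 FPKM in unstimulated CTL, 4.85, 5.24 and 6.16 FPKM with peptide, 5.27, 5.91 and 6.43 FPKM with PI3Kdi and 3.37, 3.1 and 2.4 FPKM with MEKi. The TCR and PI3Kdi samples overlapped, and the MEKi samples lay between them and the unstimulated ones. Its log2 fold change was 1.58 ± 0.15 with peptide (adjusted p = 2.63e-07), 0.12 with PI3Kdi (adjusted p = 0.611) and −0.86 with MEKi (adjusted p = 0.000503).

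The other 7 members that rose had log2 fold changes of 1.04 to 1.21. Zfp295 (Zbtb21, a BTB-type factor) was at 2.28, 2.22 and 1.99 FPKM in unstimulated CTL and 5.1, 5.16 and 4.75 FPKM with peptide, and 4.42 to 5.3 FPKM with either inhibitor. Its rise was 1.17 ± 0.1 on the log2 scale (adjusted p = 8.67e-08). Zfp708 rose by 1.21 ± 0.18 (adjusted p = 2.82e-05) from 0.41, 0.55 and 0.66 FPKM to 1.4, 1.49 and 1.2 FPKM, but it shared 94.3% of its 100-base stretches with the annotated transcript Gm28557, so its value is uncertain. Zfp318, which in B cells directs the splicing that yields IgD, rose by 1.07 from 0.07, 0.09 and 0.13 FPKM to 0.27, 0.38 and 0.29 FPKM (adjusted p = 0.000656). Zfp202, a SCAN-type factor tied to lipid metabolism genes, rose by 1.05 from 1.26, 1.21 and 1.03 FPKM to 2.8, 2.57 and 2.21 FPKM (adjusted p = 9.12e-06). Both stood near the threshold on the scale of log2(FPKM + 0.1), which lowers the fold change of a gene as scarce as Zfp318. Zfp318 was at 0.97 without unstimulated replicate 1 and at 0.96 without TCR replicate 2. Zfp202 was at 0.97 without unstimulated replicate 3 and at 0.98 without TCR replicate 1. Zfp623, Zfp954 and Zfp296, named after their values were seen to complete the list, rose by 1.04 each. On the TPM scale Zfp295, Zfp708, Zfp318 and Zfp202 stayed higher but under 2-fold (0.77, 0.84, 0.82 and 0.66).

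Promoter sequence was examined for the members that rose together. Of the 268 members 223 had a window in the RefSeq promoter table (build GRCm38.p6, from 250 bases before to 50 after the start), as had 8339 of all genes in the expression table. The E-box CACGTG, a palindrome read by basic helix-loop-helix factors such as Myc, was in 4 of the 9 risen members with a window (Zfp202, Zfp295, Zfp296 and Zfp708) and in 1 of the 9 that fell (Zfp365). The shares were 8.97% of the members, 12.2% of the genes in the table and 7.15% of all 32851 windows. The AP-1 letters TGANTCA were in 5.38% of the members and 5.94% of the genes in the table, the CRE letters TGACGTCA in 4.93% and 3.84%, and the ETS letters CCGGAAG in 23.8% and 21.8%. The SP1 letters GGGCGG were in 52.0% of the members and 69.9% of the genes, with 41.9% of the KRAB members and 60.7% of the others. Of the 9 risen and the 9 fallen members, AP-1 was in 1 and 1, CRE in 1 and 1, ETS in 2 and 1, and SP1 in 4 and 3. The E-box was thus the motif with the widest split among those searched, and the split was not tested. Both strands were searched, and letters in a window are a description and not a binding site. Below are the 250 bases before the start of Zfp708 and Zfp295, shown because they hold the E-box in members that rose, with the E-box in capitals.
Zfp708, chr13:67097977-67098226, minus strand: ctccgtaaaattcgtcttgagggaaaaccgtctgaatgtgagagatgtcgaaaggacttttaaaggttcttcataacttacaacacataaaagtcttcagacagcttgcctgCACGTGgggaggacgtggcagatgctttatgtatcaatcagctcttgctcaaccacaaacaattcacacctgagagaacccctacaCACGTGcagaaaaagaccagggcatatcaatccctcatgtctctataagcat
Zfp295, chr16:97962623-97962872, minus strand: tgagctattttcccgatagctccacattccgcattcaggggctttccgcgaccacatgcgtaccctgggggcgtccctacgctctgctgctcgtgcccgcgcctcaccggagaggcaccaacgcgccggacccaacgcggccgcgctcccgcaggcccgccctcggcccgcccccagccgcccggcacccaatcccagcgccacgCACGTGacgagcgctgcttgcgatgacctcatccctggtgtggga
The E-box began at base −138 and again at −52 in Zfp708, and at −45 in Zfp295, counted from the start of transcription. In Zfp202 and Zfp296 it began after the start, at base 10 and base 1.

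Zfp652 fell most on the scale of log2(FPKM + 0.1) and was the single member with a mean above 10 FPKM to pass the 2-fold threshold. It encodes a repressor that works with the ETO-family protein CBFA2T3, and was at 27.7, 27.78 and 24.61 FPKM in unstimulated CTL, 5.27, 4.69 and 5.74 FPKM with peptide, 8.59, 8.86 and 8.78 FPKM with PI3Kdi and 7.85, 8.16 and 8.74 FPKM with MEKi. The unstimulated samples stood 5.03-fold above the TCR samples, and both inhibitor groups lay a little above the TCR group without reaching the unstimulated level. The log2 fold changes were −2.33 ± 0.09 with peptide (adjusted p = 4.92e-12), 0.73 with PI3Kdi (adjusted p = 3.3e-05) and 0.65 with MEKi (adjusted p = 4.43e-05). It shared 11.1% of its 100-base stretches with the neighbouring gene Phospho1.

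Zfp395 followed the same order. It binds a promoter element of the huntingtin gene, and was at 2.84, 2.88 and 2.96 FPKM in unstimulated CTL, 0.51, 0.52 and 0.77 FPKM with peptide, 0.87, 0.79 and 1.12 FPKM with PI3Kdi and 0.96, 1.31 and 1.01 FPKM with MEKi. The inhibitor samples all exceeded the TCR samples and overlapped each other. It changed by −2.12 ± 0.18 with peptide (adjusted p = 8.67e-08), 0.56 with PI3Kdi (adjusted p = 0.0367) and 0.78 with MEKi (adjusted p = 0.00418). Zfp365, known from neurons as DBZ, fell by 1.87 ± 0.34 (adjusted p = 0.00016) from 0.86, 0.83 and 0.62 FPKM to 0.22, 0.24 and 0.02 FPKM, where the lowest sample is worth about 1 fragment.

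Zfp362 (−1.70), Zfp3 (−1.61), Zfp41 (−1.56), Zfp710 (−1.54) and Zfp161 (−1.43) fell next. Zfp362 went from 8.74, 8.39 and 8.0 FPKM to 2.81, 2.52 and 2.23 FPKM with peptide, and stood at 3.78, 3.01 and 3.38 FPKM with PI3Kdi and 4.36, 4.28 and 4.14 FPKM with MEKi. Zfp3 went from 3.32, 3.31 and 3.35 FPKM to 1.35, 0.88 and 0.89 FPKM, and stood at 1.44 to 1.86 FPKM with the inhibitors. Zfp161 (Zbtb14, a repressor first described on the Myc promoter) went from 4.05, 4.3 and 4.44 FPKM to 1.24, 1.75 and 1.6 FPKM, and stood at 2.3, 2.32 and 2.62 FPKM with PI3Kdi and 2.49, 3.34 and 2.73 FPKM with MEKi. In these 3 genes every inhibitor sample lay between the unstimulated and the TCR samples. Their log2 fold changes with PI3Kdi were 0.41, 0.70 and 0.64 (adjusted p = 0.0137, 0.00519 and 0.00491) and with MEKi 0.74, 0.61 and 0.86 (adjusted p = 0.000143, 0.00826 and 0.000337). The remaining members that fell were Zfp287 and, named after their values were seen, Zfp934, Zfp808, Zfp455 and Zfp367, with log2 fold changes of −1.31 to −1.09. Each comparison of an inhibitor with TCR shares the TCR samples with the peptide comparison, so a low value in those samples enters both.

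**Figure D2:**
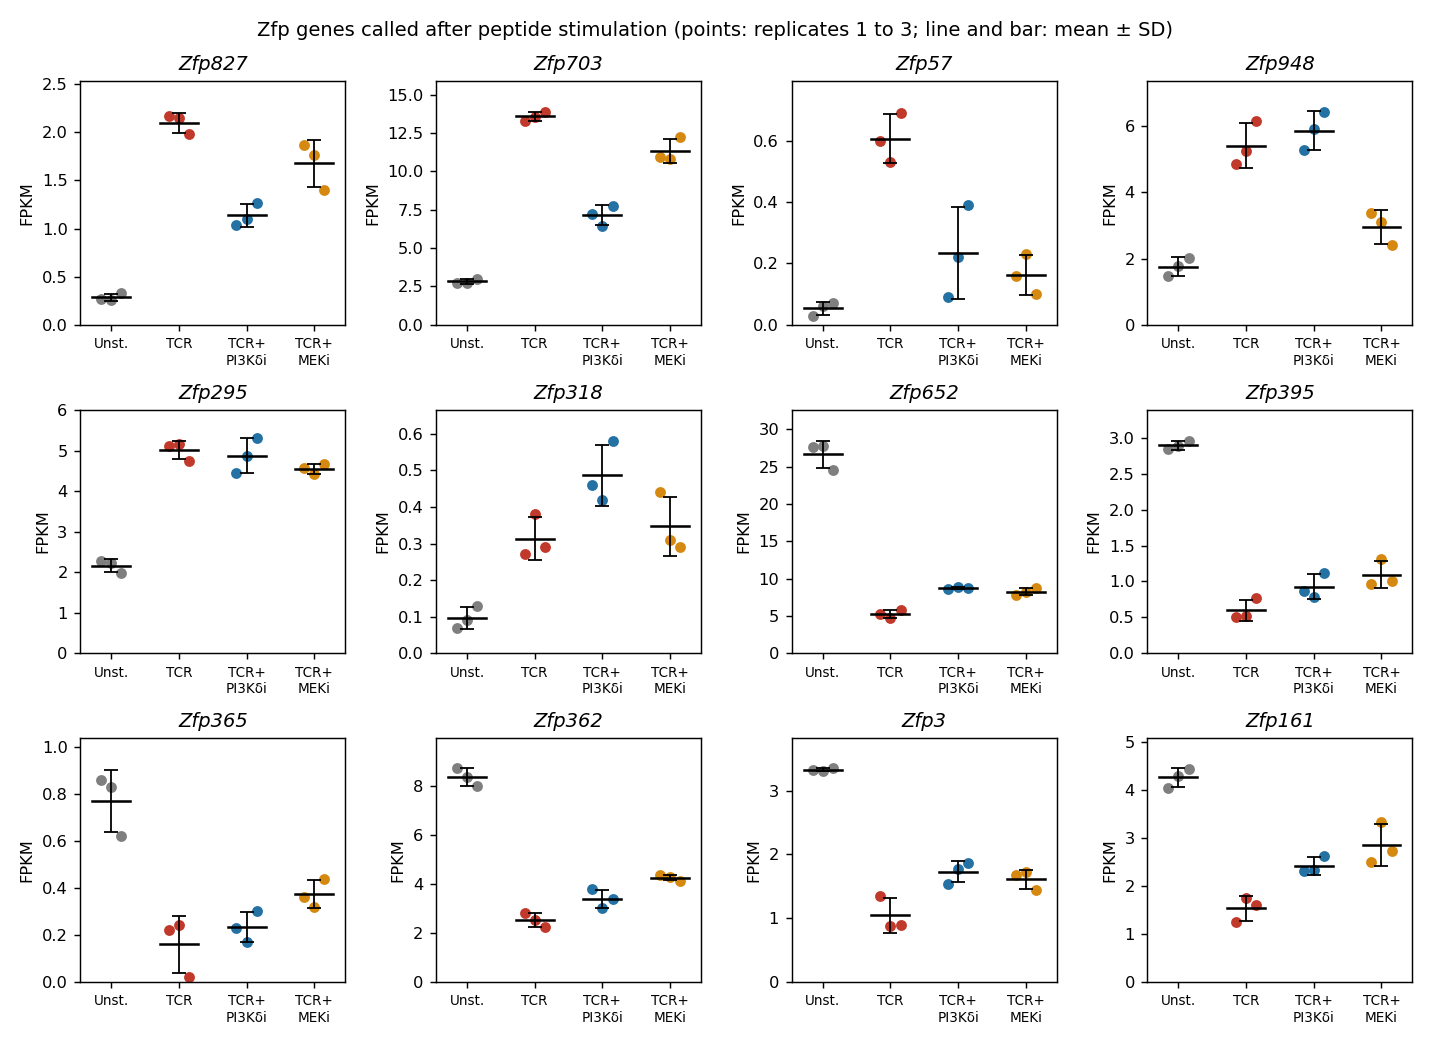
FPKM of 12 Zfp members in the 3 samples of each group (points), with the group mean (line) and SD (bar), on linear axes from 0 that differ between panels. Zfp827, Zfp703, Zfp57, Zfp948, Zfp295 and Zfp318 rise with peptide, and in Zfp652, Zfp395, Zfp365, Zfp362, Zfp3 and Zfp161 the TCR samples lie below the unstimulated ones.

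Among members with known functions the changes with peptide were mostly under 2-fold. In the RNA and ribosome list 5 of 8 rose and 1 fell at an adjusted p under 0.05 (62.5% and 12.5%, against 33.6% and 34.9% of all genes), with a median log2 fold change of 0.29. Zfp622, a factor of late large-subunit maturation, rose by 0.69 from 16.96, 17.11 and 18.86 FPKM to 31.44, 27.35 and 26.96 FPKM (adjusted p = 5.65e-07). Zfp593, another large-subunit assembly factor, rose by 0.44 from 21.9, 20.39 and 22.45 FPKM to 31.64, 28.45 and 27.71 FPKM (adjusted p = 0.000618). Zfp106 rose by 0.55 (adjusted p = 4.83e-06), and Zfp346, a double-stranded RNA-binding protein, and Zfp598 rose by 0.39 and 0.20 (adjusted p = 0.0011 and 0.014), but on the TPM scale these last 2 turned to −0.02 and −0.21. The median of all genes was −0.41 on that scale, so the rises of Zfp622, Zfp593 and Zfp106 are smaller there too. The counts and medians of this and the following lists hold for the deposited scale. Zfp207, the most abundant member, fell by 0.19 from 92.46, 91.92 and 85.73 FPKM to 79.0, 79.71 and 78.19 FPKM (adjusted p = 0.00209). Zfp830 (0.02) and Zfp326 (−0.10) did not pass.

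In the T cell and immune list 3 of 7 rose and 1 fell (42.9% and 14.3%), so the share that rose was near the 33.6% of all genes, and the median was 0.03. Zfp281, a regulator of stem cell identity, rose by 0.77 (adjusted p = 1.22e-05), Zfp318 by 1.07, and Zfp335, needed for thymocyte maturation, by 0.38 (adjusted p = 0.00113), the last turning to −0.03 on the TPM scale. Zfp217 fell by 0.88 from 11.99, 10.82 and 11.55 FPKM to 6.54, 6.17 and 5.88 FPKM (adjusted p = 9.09e-08), with no overlap between the groups. Zfp341, which drives STAT3 transcription, Zfp91 and Zfp148 did not pass (0.03, −0.12 and −0.21). In the list for imprint and retroelement silencing 3 of 4 rose, where 33.6% of all genes did so: Zfp57, Zfp568 by 0.59 (adjusted p = 0.000266) and Zfp445 by 0.28 (adjusted p = 0.02), the last at −0.13 on the TPM scale. Zfp809, which silences retroviral DNA, ranged from 7.64 to 11.62 FPKM in the TCR samples, a span that held all its unstimulated values, and did not pass (0.17, adjusted p = 0.283). In the transcription and chromatin list 4 of 7 rose and 2 fell (57.1% and 28.6%): Zfp410, an activator of Chd4, Zfp384, Zfp131 and Zfp263 rose by 0.38 to 0.50, with Zfp384 at −0.03 on the TPM scale, and Zfp451 and Zfp292 fell by 0.25 and 0.33 (adjusted p = 0.0418 and 0.0414), while Zfp143 did not pass (0.04).

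Members with and without the KRAB string had like medians with peptide. Of the 120 with the string 4 rose and 3 fell more than 2-fold, with a median of 0.11 (3.33% and 2.50%, against 8.87% and 11.1% of all genes), and of the 147 without it 7 rose and 10 fell, with a median of 0.15 (4.76% and 6.80%). The co-repressor partners of KRAB proteins, listed as a separate pathway of which 14 of 15 genes were in the table, changed in both directions: 4 rose and 8 fell at an adjusted p under 0.05 (28.6% and 57.1%, against 33.6% and 34.9% of all genes), and 4 fell more than 2-fold (28.6%, against 11.1%). Trim28 itself averaged 99.3 ± 2.77 FPKM in unstimulated CTL and 85.8 ± 2.28 with peptide, a log2 fold change of −0.21 (adjusted p = 0.000978), and Setdb1 did not pass (0.06, adjusted p = 0.399). The 4 that fell most were Dnmt1, the maintenance DNA methyltransferase (−1.62), the HP1 genes Cbx3 (−1.61) and Cbx5 (−1.32), and Atf7ip, the partner of Setdb1 (−1.12). On the TPM scale 1 of the 14 was higher and 11 were lower.

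The second comparison asked which of the peptide-stimulated levels depended on PI3K p110δ. PI3Kdi moved the members little: 0 rose and 1, Zfp57, fell more than 2-fold, which is 0.373% of the members against 1.88% of all genes (0.499% higher and 1.38% lower) and 2.68% of the genes of similar FPKM. At an unadjusted p under 0.05 in limma 46 members were higher and 24 lower, and none of the 46 exceeded 2-fold. With the adjusted p and no fold threshold 26 were higher and 9 lower (13.1%, against 25.6% of all genes, 12.7% higher and 12.8% lower, and 22.2% of the genes of similar FPKM). The median was 0.09 over the members, 0.02 over all genes and 0.10 over the genes of similar FPKM.

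Zfp827 (−0.83), Zfp703 (−0.92) and Zfp57 (−1.18) had the largest falls, and Zfp93 (0.82), Zfp652 (0.73) and Zfp287 (0.73) the largest rises at an adjusted p under 0.05. Zfp287 was at 1.83, 1.99 and 1.95 FPKM in unstimulated CTL, 0.86, 0.86 and 0.67 FPKM with peptide and 1.19, 1.33 and 1.67 FPKM with PI3Kdi (adjusted p = 0.0108), and at 0.79 to 1.31 FPKM with MEKi. Its PI3Kdi samples lay between the unstimulated and the TCR samples, and its MEKi samples overlapped the TCR samples. In the RNA and ribosome list 0 of 8 rose and 3 fell (37.5%, against 12.8% of all genes): Zfp593 by 0.39, Zfp622 by 0.27 and Zfp598 by 0.21 (adjusted p = 0.00584, 0.0132 and 0.0337). The PI3Kdi samples of Zfp593 were at 25.81, 18.95 and 22.47 FPKM, all below the TCR samples. On the TPM scale the median of all genes with PI3Kdi was 0.19, and 4 members were lower at that threshold instead of 9. The falls in this list are given on the deposited scale alone. Zfp217, which had fallen with peptide, was 0.38 higher with PI3Kdi (adjusted p = 0.00201).

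**Figure D3:**
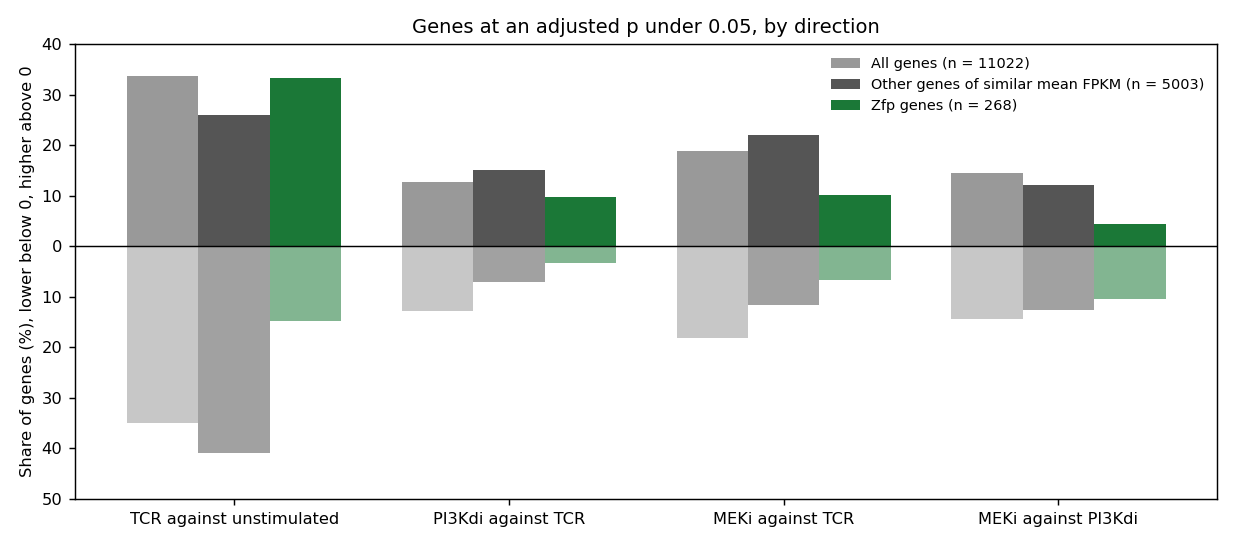
Share of genes (%) higher (upward bars) and lower (downward bars) at an adjusted p under 0.05 in the 4 comparisons, for all 11022 genes, 5003 other genes of similar mean FPKM and the 268 Zfp members. After peptide 33.2% of the members are higher and 14.9% lower, and in each inhibitor comparison the bars of the members are the shortest of the 3 in total.

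KRAB members had a median log2 fold change of 0.17 with PI3Kdi, with 92 of 120 above 0. The median was 0.02 over all genes, with 5755 of 11022 above 0, and 0.10 over the genes of similar FPKM, with 3181 of 5003 above 0. At an adjusted p under 0.05, 12 KRAB members were higher and 2 lower (10.0% and 1.67%), so the share called higher was below the 12.7% of all genes and the 15.1% of the genes of similar FPKM. Members without the string had a median of 0.05, with 88 of 147 above 0, 14 higher and 7 lower (9.52% and 4.76%). The KRAB median was smaller after quantile normalisation (0.10, with 78 of 120 above 0) and larger on the TPM scale, where the median of all genes was 0.19 and that of the KRAB members 0.34. No test of the difference between both kinds of member was made.

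The third comparison asked the same of MEK. With MEKi 0 members rose and 1, again Zfp57, fell more than 2-fold (0.373%, against 3.49% of all genes, 0.980% higher and 2.51% lower, and 4.24% of the genes of similar FPKM). At an unadjusted p under 0.05 in limma 36 were higher and 27 lower. With the adjusted p alone 27 were higher and 18 lower (16.8%, against 37.1% of all genes, 18.9% higher and 18.2% lower, and 33.6% of the genes of similar FPKM), and the median was 0.01 over the members, as over all genes. On the TPM scale the medians of members and of all genes were both 0.26.

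Zfp330 was the abundant member with a large fall. It was at 31.94, 32.48 and 36.19 FPKM in unstimulated CTL, 61.67, 66.45 and 57.82 FPKM with peptide, 58.52, 56.01 and 53.37 FPKM with PI3Kdi and 38.85, 42.01 and 41.17 FPKM with MEKi. The PI3Kdi and TCR samples overlapped, and the MEKi samples lay below both and above the unstimulated ones. It changed by 0.88 ± 0.07 with peptide (adjusted p = 1.66e-08), −0.15 with PI3Kdi (adjusted p = 0.121) and −0.60 with MEKi (adjusted p = 7.55e-06). Zfp365 (1.00), Zfp580 (0.90) and Zfp219 (0.87) had the largest rises at an adjusted p under 0.05.

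Zfp219, a nuclear partner of Sox9, was at 3.79, 3.96 and 4.59 FPKM in unstimulated CTL, 3.4, 3.31 and 3.69 FPKM with peptide, 4.22, 3.04 and 4.42 FPKM with PI3Kdi and 7.23, 5.8 and 6.3 FPKM with MEKi (adjusted p = 0.000234 against TCR). All its MEKi samples were above every other sample. Zfp580 was at 2.6, 1.46 and 2.41 FPKM with peptide and 3.22, 3.79 and 5.26 FPKM with MEKi (adjusted p = 0.00612), and at 3.48 to 4.52 FPKM in unstimulated CTL. Leaving out 1 library took Zfp580 to 1.05 (without TCR replicate 1), 1.00 (without TCR replicate 3) or 1.06 (without MEKi replicate 1), past 2-fold. Zfp365 was at 0.36, 0.32 and 0.44 FPKM with MEKi (adjusted p = 0.0303) and reached 1.22, 1.26 and 1.08 without TCR replicate 1, TCR replicate 2 and MEKi replicate 2.

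Zfp598, the sensor of collided ribosomes, was higher with MEKi and lower with PI3Kdi. It was at 23.43, 22.29 and 21.51 FPKM in unstimulated CTL, 27.25, 24.46 and 25.69 FPKM with peptide, 23.73, 20.49 and 22.9 FPKM with PI3Kdi and 33.53, 34.97 and 34.65 FPKM with MEKi. The MEKi samples were the highest of all, and the PI3Kdi samples spanned the unstimulated range. It was 0.41 higher with MEKi than with peptide alone (adjusted p = 0.000236) and 0.21 lower with PI3Kdi (−0.21, adjusted p = 0.0337).

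The inhibitors were then compared directly, which tests the difference of their effects since both are set against the same TCR samples. Of the members 0 were more than 2-fold higher with MEKi than with PI3Kdi and 1, Zfp93, was lower (0.373%, against 3.09% of all genes, 1.39% higher and 1.71% lower, and 3.92% of the genes of similar FPKM). At an unadjusted p under 0.05 in limma 22 were higher and 50 lower, and with the adjusted p 12 were higher and 28 lower (14.9%, against 28.9% of all genes, 14.5% higher and 14.4% lower). The median was −0.07 over the members and −0.01 over all genes. KRAB members had a median of −0.14, with 33 of 120 above 0, 1 higher and 14 lower (0.833% and 11.7%, against 14.5% and 14.4% of all genes), and the others had a median of 0.03, with 79 of 147 above 0, 11 higher and 14 lower (7.48% and 9.52%). After quantile normalisation the KRAB median was −0.13 and on the TPM scale −0.07, where that of all genes was 0.07. With MEKi against TCR the KRAB members had a median of −0.01, with 56 of 120 above 0. There 6 were higher and 7 lower (5.00% and 5.83%, against 18.9% and 18.2% of all genes). The direct comparison uses the same PI3Kdi samples as that of PI3Kdi with TCR, so their values enter both.

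Zfp93, a KRAB protein with 13 C2H2 motifs, was at 0.25, 0.41 and 0.34 FPKM in unstimulated CTL, 0.29, 0.46 and 0.17 FPKM with peptide, 0.57, 0.46 and 0.77 FPKM with PI3Kdi and 0.14, 0.21 and 0.22 FPKM with MEKi. PI3Kdi and MEKi samples did not overlap, while the TCR samples reached into both. The difference was −1.26 ± 0.28 on the log2 scale (adjusted p = 0.00349). Against TCR alone its change was 0.82 with PI3Kdi (adjusted p = 0.0427, and 1.09 without TCR replicate 2) and −0.44 with MEKi (adjusted p = 0.24).

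Zfp667, also of the KRAB type, was at 1.12, 1.07 and 1.09 FPKM with PI3Kdi and 0.45, 0.77 and 0.48 FPKM with MEKi, a difference of −0.87 (adjusted p = 0.00875, and −1.08 without MEKi replicate 2). Zfp238 (Zbtb18, a repressor best known from neurons) went the other way, at 1.12, 1.13 and 1.34 FPKM with PI3Kdi and 1.66, 2.13 and 2.7 FPKM with MEKi, a difference of 0.78 (adjusted p = 0.0096). In both genes the inhibitor groups did not overlap, and neither inhibitor differed from TCR past the threshold. Zfp948 was −0.97 (adjusted p = 0.000208) and reached −1.05, −1.07 and −1.01 without PI3Kdi replicate 1, MEKi replicate 1 and MEKi replicate 2. Zfp703 differed by 0.66 (adjusted p = 6.4e-05) and Zfp219 by 0.72 (adjusted p = 0.00121).

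**Figure D4:**
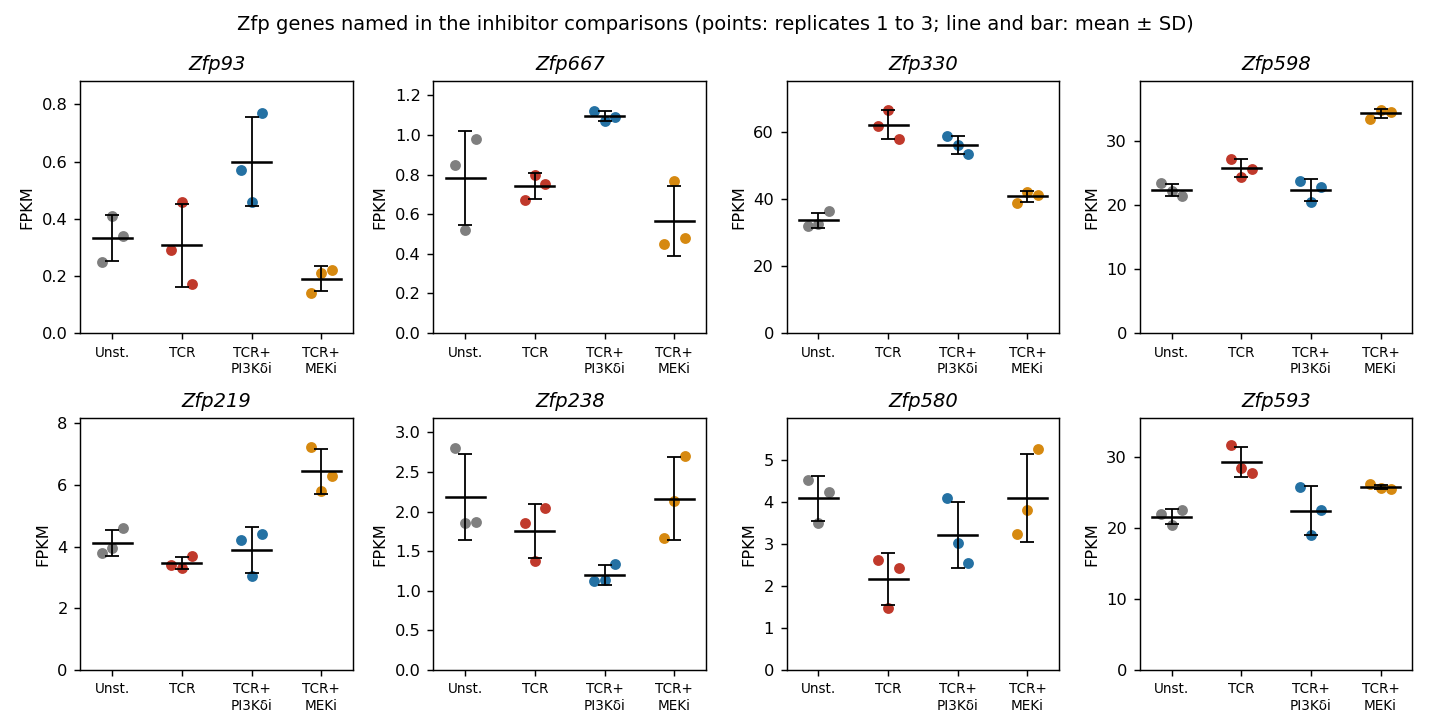
FPKM of 8 Zfp members named in the inhibitor comparisons, with the 3 samples of each group as points, the group mean as a line and the SD as a bar, on linear axes from 0 that differ between panels. Zfp93 and Zfp667 are lower with MEKi than with PI3Kdi, Zfp598, Zfp219 and Zfp238 are higher, and Zfp330 falls towards the unstimulated level with MEKi.

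Neighbouring KRAB genes on chromosome 17 stood above their TCR level with PI3Kdi. The members were grouped where neighbours lay within 200000 bases, and the group at chr17:21383748-21725636 held 7 members, Zfp677, Zfp54, Zfp51, Zfp53, Zfp52, Zfp948 and Zfp760, all with the KRAB string. This group and its genes other than Zfp948 were picked after their values were seen. With PI3Kdi all 7 had a log2 fold change above 0 (median 0.47), and 4 were higher at an adjusted p under 0.05 (57.1%, against 12.7% of all genes). After quantile normalisation 6 of 7 were above 0 and 3 were higher. With MEKi set against PI3Kdi all 7 were below 0 (median −0.53) and 4 were lower (57.1%, against 14.4% of all genes), and TPM or quantile-normalised values gave the same counts. Both comparisons use the same PI3Kdi samples, and the group was picked after these values were seen, so the second is not separate support. With MEKi against TCR the median was −0.07, with 2 of 7 above 0. There 0 were higher and 1, Zfp948, was lower (14.3%, against 18.2% of all genes). None of the 7 shared a 100-base stretch with another gene. A direction above 0 with PI3Kdi was not particular to this group: of all 33 members on chromosome 17, 28 were above 0 (median 0.19). Another group of 7, at chr17:32765496-33110705, had all 7 above 0 with PI3Kdi (median 0.19), but 0 of them were higher at an adjusted p under 0.05.

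Zfp52, the most abundant of the group, was at 11.74, 13.25 and 12.45 FPKM in unstimulated CTL, 17.62, 19.42 and 18.21 FPKM with peptide, 27.11, 26.93 and 27.75 FPKM with PI3Kdi and 19.0, 18.46 and 17.98 FPKM with MEKi. The PI3Kdi samples lay well above all others, and the MEKi samples lay within the range of the TCR samples. Its log2 fold change was 0.56 ± 0.06 with peptide (adjusted p = 1.7e-06), 0.56 ± 0.06 with PI3Kdi (adjusted p = 2.48e-05) and 0.01 with MEKi (adjusted p = 0.954).

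Zfp53 was at 6.42, 6.28 and 5.76 FPKM with peptide, 9.29, 7.25 and 9.52 FPKM with PI3Kdi and 5.81, 5.91 and 6.15 FPKM with MEKi, so it was 0.48 higher with PI3Kdi (adjusted p = 0.00489). Zfp760 was at 0.75, 0.79 and 0.7 FPKM with peptide, 1.0, 1.18 and 1.15 FPKM with PI3Kdi and 0.84, 0.57 and 0.73 FPKM with MEKi, so it was 0.51 higher with PI3Kdi (adjusted p = 0.0307). Zfp677 was at 1.79, 1.73 and 1.65 FPKM with peptide and 1.99, 2.43 and 2.94 FPKM with PI3Kdi, so it was 0.47 higher (adjusted p = 0.0473). In these 3 genes every PI3Kdi sample was above every TCR sample. Zfp54 (0.27, adjusted p = 0.222), Zfp51 (0.02, adjusted p = 0.9) and Zfp948 (0.12) did not pass. The 7 genes differed in their response to peptide: Zfp948, Zfp51 (0.62, adjusted p = 7.05e-06) and Zfp52 rose, Zfp760 fell by 0.74 (adjusted p = 0.00086), and the other 3 did not pass.

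**Figure D5:**
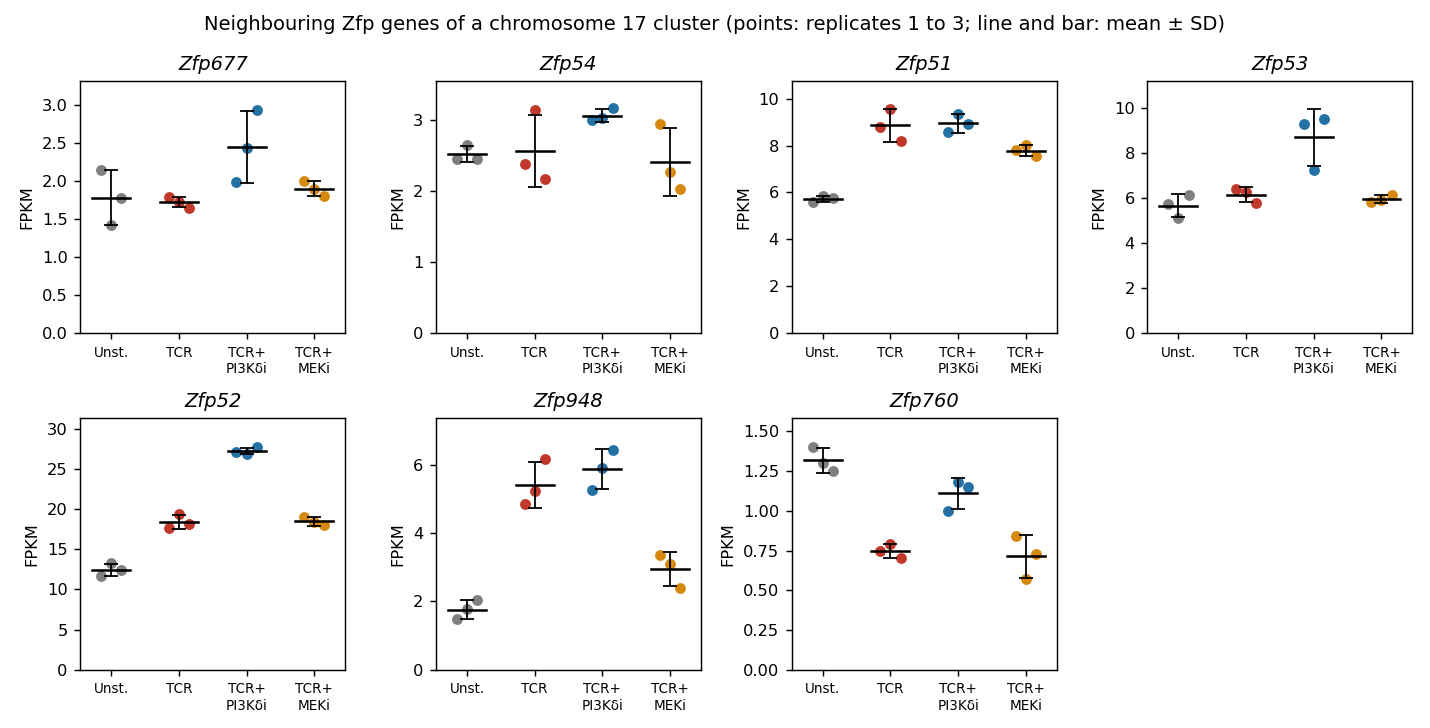
FPKM of the 7 neighbouring KRAB genes on chromosome 17 in the 3 samples of each group (points), with the group mean (line) and SD (bar), on linear axes from 0 that differ between panels. In Zfp677, Zfp53, Zfp52 and Zfp760 the PI3Kdi samples stand above the TCR samples, and in all 7 genes the mean with MEKi is below that with PI3Kdi.

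Promoters of the Zfp52 group were compared with one another, and 6 of its 7 genes had a RefSeq window. The stretch AGCCTGAGAC, the longest shared by 4 of these promoters and picked after they had been compared, was in 4 of the 6 windows, in those 4 of the 223 members with a window and in 51 of all 32851 windows (0.155%). Tandem KRAB genes arise by duplication, so shared letters are common to such neighbours. The 250 bases before each start show the stretch in capitals.
Zfp948, chr17:21566728-21566977, plus strand: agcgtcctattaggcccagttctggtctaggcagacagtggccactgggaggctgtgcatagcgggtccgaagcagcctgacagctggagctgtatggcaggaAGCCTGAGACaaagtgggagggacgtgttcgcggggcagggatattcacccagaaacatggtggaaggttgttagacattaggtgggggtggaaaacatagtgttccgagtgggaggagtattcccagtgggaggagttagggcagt
Zfp53, chr17:21488738-21488987, plus strand: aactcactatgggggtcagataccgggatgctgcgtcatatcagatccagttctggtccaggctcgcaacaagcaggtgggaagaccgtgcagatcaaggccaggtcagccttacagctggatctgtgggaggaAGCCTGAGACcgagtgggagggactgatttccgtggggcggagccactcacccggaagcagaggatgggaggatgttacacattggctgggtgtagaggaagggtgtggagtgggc
Zfp52, chr17:21535289-21535538, plus strand: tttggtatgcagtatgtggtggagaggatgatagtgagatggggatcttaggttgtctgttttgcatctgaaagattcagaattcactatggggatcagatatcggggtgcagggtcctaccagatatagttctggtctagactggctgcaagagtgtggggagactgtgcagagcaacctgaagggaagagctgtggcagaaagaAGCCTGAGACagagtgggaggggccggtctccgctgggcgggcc
Zfp54, chr17:21422977-21423226, plus strand: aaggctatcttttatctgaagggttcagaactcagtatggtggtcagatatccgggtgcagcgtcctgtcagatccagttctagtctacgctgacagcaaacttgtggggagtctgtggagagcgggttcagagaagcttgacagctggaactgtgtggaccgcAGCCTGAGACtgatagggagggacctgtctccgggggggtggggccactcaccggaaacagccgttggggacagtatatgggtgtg
The stretch began at base −147 in Zfp948, −116 in Zfp53, −44 in Zfp52 and −86 in Zfp54. Of these 4 genes Zfp52 and Zfp53 passed the PI3Kdi test, and Zfp54 and Zfp948 did not. The stretch was defined from these 4 promoters, so all 4 carry it by construction, and its relation to the response was not tested. None of these 4 windows held the E-box before the start.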

How the data were processed

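RNA was sequenced from 12 CTL samples in 4 groups of 3 (Unstimulated, TCR, TCR with PI3Kdi and TCR with MEKi), and groups were taken from the treatment labels. Per the submitters' processing notes and the study's methods, the authors aligned stranded paired-end reads to mm10 with STAR 2.4.2a and counted them over RefSeq genes with Subread 1.5.0. Genes with low counts were dropped, and the authors deposited FPKM scaled by edgeR's TMM factors over non-overlapping exon length. Whether counting used the strand is not given in the sources used here. A large rise of a few mRNAs moves each of these values only through the scaling, so 2 other scalings were tried.

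The deposited values are FPKM, so no count model was run. Each depth was chosen to bring low FPKM values of its sample near whole fragments. At that depth 57.1% to 76.6% of these values lay within 0.15 of a whole fragment. At a depth not so chosen 30% would by chance, and the choice itself raises the share. Whole reads were therefore not recovered, and estimated depths and fragment numbers are approximate. For MEKi replicate 1, which had the lowest estimate, 7880000, a depth of 15690000 scored nearly as well. Values were analysed as log2(FPKM + 0.1) with limma 3.58.1 in R 4.3.3 (empirical Bayes with intensity trend, 1 mean per group, all 12 samples, Benjamini-Hochberg adjustment over 11022 genes), and a gene was said to rise or fall more than 2-fold at an adjusted p under 0.05. Such fold changes understate the change of low genes. The code was checked on simulated data. Limma is named once here for every adjusted p. Other steps used Python 3.11.15, pandas 2.3.3, NumPy 2.4.6 and matplotlib 3.10.9. Members were matched to GENCODE (GRCm38, the build of mm10), whose coding sequences were translated, and promoters come from RefSeq. The replicates were raised from 3 mice, without a statement that a number marks the same mouse in every group. Same-numbered samples deviated together between the TCR groups (r = 0.239 to 0.451 for TCR and PI3Kdi, 0.122 to 0.182 for TCR and MEKi, 0.137 to 0.149 for both inhibitors). They also did so between unstimulated and MEKi samples (0.117 to 0.147). This did not hold for every number between unstimulated samples and TCR samples (0.004 to 0.153) or PI3Kdi samples (−0.062 to 0.114).

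Members and lists were chosen with earlier results of these data known. Named members are, for peptide, the 8 largest rises and 8 largest falls past the threshold that moved alike in all same-numbered pairs; for each other comparison, those past 2-fold and the 3 largest rises and falls at an adjusted p under 0.05; the 6 highest means; and the role lists.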

Additional observations from a re-analysis of the deposited data

Results flagged for a closer look

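Of the 40 members for which the effect of MEKi differed from that of PI3Kdi at an adjusted p under 0.05 (limma; 14.9%, against 28.9% of all genes), 17 are named above, and their values follow as MEKi minus PI3Kdi on the log2 scale. Zfp93 (−1.26), Zfp948 (−0.97), Zfp667 (−0.87), Zfp330 (−0.46), Zfp292 (−0.39), Zfp410 (−0.35), Zfp217 (−0.22) and Zfp263 (−0.19) were lower with MEKi, as were the neighbouring chromosome 17 genes Zfp760 (−0.58), Zfp52 (−0.56) and Zfp53 (−0.53). Zfp238 (0.78), Zfp219 (0.72), Zfp703 (0.66), Zfp598 (0.62), Zfp827 (0.52) and Zfp362 (0.33) were higher with MEKi. With 3 samples per group no single sample was examined as an outlier.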

How the results depend on the processing

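Fewer members passed 2-fold with peptide at a pseudocount of 1 (3 higher and 5 lower, median 0.08) and with limma's treat against 2-fold (4 and 5), and more at a pseudocount of 0.01 (14 and 16) and with quantile-normalised values (13 and 15, median 0.15). The filter at a mean FPKM of 1 left 9 higher and 8 lower (median 0.14), and the TPM scale gave 4 higher and 24 lower (median −0.26) and kept 17 of the 24 calls. Leaving out 1 replicate gave 9 to 12 higher, 13 to 15 lower and a median of 0.10 to 0.15. On the TPM scale Zfp598 (−0.21), Zfp346 (−0.02), Zfp335 (−0.03), Zfp445 (−0.13) and Zfp384 (−0.03) reversed. No fold threshold gave 89 higher and 40 lower, and with the TPM scale 28 and 109.

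For PI3Kdi, MEKi and the direct comparison the single member lower was lost (0) at a pseudocount of 1 and with treat. The filter at a mean FPKM of 1 took out Zfp57 and Zfp93 before the fit, so it does not test these calls. With PI3Kdi the median was 0.26 (TPM scale) and 0.03 (quantile normalisation), and leaving out 1 replicate gave 0 to 2 higher and 0 to 1 lower. With MEKi 2 were higher at a pseudocount of 0.01, 5 on the TPM scale (median 0.26) and 1 with quantile-normalised values, and leaving out 1 replicate gave 0 to 2. MEKi against PI3Kdi had a median of 0.01 on the TPM scale and, leaving out 1 replicate, 1 to 3 lower. Without a fold threshold the counts were 26 higher and 9 lower for PI3Kdi (76 and 4 on the TPM scale, 16 and 12 with quantile-normalised values, 15 and 5 with the compared groups alone), 27 and 18 for MEKi (98 and 3, 20 and 23), and 12 and 28 for MEKi against PI3Kdi (22 and 16 on the TPM scale). The replicate block, which pairs same-numbered samples, gave 11 higher and 13 lower with peptide and 0 and 1 in each other comparison, and changed no call. The cause of these shifts was not tested. Low FPKM is a further limit: 47 members averaged under 1 FPKM, where few fragments lie behind a value.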

Other observations

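Families named differently but also built on zinc fingers gave these values. They were taken by the symbol in the expression table. Genes now called Zbtb, Zscan or Zkscan but listed there as Zfp, such as Zfp295, Zfp161 and Zfp187, were therefore counted as Zfp members only. Of 34 Zbtb genes, BTB-type C2H2 factors that include lineage regulators of T cells, 3 rose and 2 fell more than 2-fold with peptide (14.7%, against 20.0% of all genes), with a median log2 fold change of 0.12, and 3 rose and 0 fell with MEKi (8.82%, against 3.49% of all genes). Of 13 Zscan and Zkscan genes, which carry a SCAN domain, 0 passed 2-fold in any comparison (limma), and 4 were higher and 0 lower with peptide at an adjusted p under 0.05 (30.8% higher, against 33.6% of all genes). Of 18 Zc3h genes, whose CCCH fingers bind RNA, 3 rose and 1 fell with peptide (22.2%), close to the 20.0% of all genes.

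Of the 36 members with a mean of 10 FPKM or more, 23 were higher and 5 lower with peptide at an adjusted p under 0.05 (63.9% and 13.9%, against 33.6% and 34.9% of all genes), with a median log2 fold change of 0.28, and of the 47 under 1 FPKM 4 were higher and 10 lower (8.51% and 21.3%), with a median of 0.06. The difference between these abundance classes was not tested. On chromosome 7 a group of 13 neighbouring members at chr7:29768552-30169750 had 5 higher and 1 lower with PI3Kdi (median 0.33; 38.5% and 7.69%, against 12.7% and 12.8% of all genes), and on chromosome 6 a group of 7 at chr6:47835661-48086593 had 3 higher and 0 lower with MEKi (median 0.25; 42.9% higher, against 18.9% of all genes). Both groups were picked after their values were seen.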
